A study of Mus musculus with 12 samples.

Results

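The E2F transcription factors and the pocket proteins that bind them were followed through myogenic differentiation in wildtype and emerin-null progenitors. The family was taken as E2f1 to E2f8 with Rbl1 and Rbl2, 10 genes in all, and each was found by its symbol in the 6 tables of the series, 1 table per stage. All 10 genes were listed, 9 of them with a tested entry at all 6 stages, out of 11529 symbols with such entries. After symbols with identical values were counted as 1 gene and genes with a mean below 1 FPKM were left out, 9623 genes remained, all 9 of these members among them. FPKM is the number of fragments per unit of transcript length and of library size, so it allows levels of different genes to be compared per length.

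RNA was sequenced from H2K myogenic progenitors of the mouse, a wildtype and an emerin-null line, with 1 sample of each genotype at each of 6 stages and 12 samples in all. Proliferating cells and cells at day 0 of differentiation were kept in growth medium with γ-interferon at 20 units per ml, and cells at days 1, 2, 3 and 4 were in low-serum differentiation medium without it. By the study's methods, though not by the labels, the switch of medium also raised the temperature, and cells for differentiation were plated more densely. Interferon, serum, temperature, CO2, density and time therefore cannot be told apart in any change from growth to differentiation medium. From proliferating to day 0 the medium was the same, and density and time cannot be told apart. Among days 1 to 4 the medium was also the same, but delayed effects of the switch cannot be told apart from time. RNA came from 3 plates per sample, but the deposited tables pool them into a single value for each sample. The spread between plates can therefore not be given, and the depth is unknown. Each genotype is represented by 1 line, and whether a difference belongs to the genotype or to the line cannot be told apart. H2K progenitors are a conditionally immortal line that carries a temperature-sensitive viral large T antigen under an interferon-inducible promoter, in both genotypes. Large T antigen is known to bind the pocket proteins, and its own level was not analysed here.

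E2F factors bind DNA, mostly with a DP partner, and switch the genes of DNA replication. E2F1, E2F2 and E2F3 are known as activators, E2F4 and E2F5 as repressors that work with the pocket proteins p107 (encoded by Rbl1) and p130 (Rbl2), E2F6 as a repressor that does not bind pocket proteins, and E2F7 and E2F8 as atypical repressors that bind DNA without a DP partner. In muscle, p130 is known as the pocket protein that accumulates as myoblasts leave the cell cycle, where it holds replication genes silent together with E2F4, and E2f7 and E2f8 are themselves known targets of the activator E2Fs.

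Emd, the gene missing from the emerin-null line, was listed at 13.6 to 62.1 FPKM in the 6 wildtype samples and at 0 to 3.10 FPKM in the 6 emerin-null samples, and the ranges did not overlap. The 3.10 FPKM was at day 2, where wildtype was at 13.6 FPKM. The other emerin-null samples were at 0.810 FPKM or less. The myogenic markers Myod1, Myf5, Myog, Des and Pax7 were all above 1 FPKM in at least 1 sample, with a summed level of 527 to 2221 FPKM in wildtype and 639 to 2226 FPKM in emerin-null samples. The 4 endothelial markers each stayed below 1 FPKM in every sample. Of 4 macrophage markers 2 were listed and Cd68 alone passed 1 FPKM, with a sum of 12.5 to 106 FPKM in wildtype and 19.3 to 118 FPKM in emerin-null samples. Of 4 adipocyte markers 2 were listed and Pparg alone passed 1 FPKM, with a sum of at most 1.73 FPKM. The fibroblast markers Col1a1 and Dcn passed 1 FPKM, with a summed level of 10.2 to 46.0 FPKM in wildtype and 6.10 to 58.1 FPKM in emerin-null samples. The smooth muscle and pericyte markers summed to 871 to 2403 FPKM in wildtype and 798 to 2000 FPKM in emerin-null samples, with Acta2, Cspg4 and Rgs5 above 1 FPKM.

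Upstream sequence is shown for E2f7 and E2f2, the members past 1.5-fold between the lines, and for E2f8 and Rbl1, which stayed within it. Promoter windows of RefSeq (GRCm38.p6) were matched by symbol for 8 of the 10 members, 10 windows in all, each reaching from 250 bases before the transcript start to 50 after it. They were searched on both strands for the E2F words TTTCCCGC, TTTGGCGC, TTTCGCGC and TTTGCCGC, which do not overlap in the hits found here. The 250 bases before the start are printed 5′ to 3′ on the strand of the gene, with E2F words in capitals. E2f7 lies at chr10:110745189-110745438 on the plus strand, E2f2 at chr4:136172024-136172273 on the plus strand, E2f8 at chr7:48881597-48881846 on the minus strand and Rbl1 at chr2:157204535-157204784 on the minus strand.
E2f7: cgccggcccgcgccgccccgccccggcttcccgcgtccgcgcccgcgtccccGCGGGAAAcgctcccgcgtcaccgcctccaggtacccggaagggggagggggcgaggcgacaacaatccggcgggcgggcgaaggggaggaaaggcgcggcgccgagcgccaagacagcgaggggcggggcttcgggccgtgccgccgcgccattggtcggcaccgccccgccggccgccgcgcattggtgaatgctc
E2f2: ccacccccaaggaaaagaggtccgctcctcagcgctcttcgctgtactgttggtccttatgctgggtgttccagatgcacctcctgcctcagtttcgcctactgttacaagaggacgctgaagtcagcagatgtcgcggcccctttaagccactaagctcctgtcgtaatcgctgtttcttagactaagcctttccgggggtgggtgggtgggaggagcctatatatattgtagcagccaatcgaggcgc
E2f8: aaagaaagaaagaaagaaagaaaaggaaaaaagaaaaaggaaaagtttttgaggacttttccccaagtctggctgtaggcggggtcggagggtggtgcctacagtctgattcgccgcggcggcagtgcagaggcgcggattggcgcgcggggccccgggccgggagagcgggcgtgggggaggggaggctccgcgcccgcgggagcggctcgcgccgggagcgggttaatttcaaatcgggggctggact
Rbl1: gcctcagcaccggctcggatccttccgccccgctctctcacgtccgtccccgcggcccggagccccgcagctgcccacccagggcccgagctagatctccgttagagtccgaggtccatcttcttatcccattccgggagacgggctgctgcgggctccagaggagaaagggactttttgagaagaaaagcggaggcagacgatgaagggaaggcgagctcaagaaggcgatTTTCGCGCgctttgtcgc

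An E2F word was found in 4 of the 10 windows, against 2.26% of 32851 mouse promoter windows. In E2f7 it was TTTCCCGC on the reverse strand at bases -198 to -191 from the start, and in Rbl1 it was TTTCGCGC on the forward strand at bases -18 to -11. The other 2 were in E2f3, with TTTCCCGC on the reverse strand at -11 to -4, and in E2f2, with TTTGGCGC past the start at bases 40 to 47 and therefore outside the stretch shown. The windows of E2f1, E2f6, E2f8 and Rbl2 and the other windows of E2f2 and E2f3 held none of these words, which says only that these letters are not in these windows. The window of E2f1 starts within the gene as GENCODE annotates it. The word TTTGAA, the core of the cell cycle homology region bound by the MuvB complex, was found within 250 bases of the start in windows of E2f2, E2f3, E2f8 and Rbl2, and in 17.9% of all windows. A match is a description of the letters, and binding was not measured here.

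Most of the family was transcribed at moderate levels in these cells. Over the 12 samples the median level was 23.2 FPKM for E2f4, 22.8 for E2f6, 20.6 for E2f8, 18.7 for Rbl1, 17.5 for E2f2, 16.2 for Rbl2, 14.9 for E2f1, 7.44 for E2f3, 3.31 for E2f5 and 1.82 for E2f7. Each gene's range over the samples overlapped that of the next in this order, so the order of neighbours is not fixed by these data. The order of E2f4, E2f5, E2f1 and Rbl2 also rests on loci that the assembly joined with neighbouring genes. E2f4 (8:105297663-105305370, plus strand) shared its locus with Elmo3 at all stages, E2f1 (2:154559407-154569892, minus strand) with Necab3, E2f5 (3:14578641-14606309, plus strand) with 1810022K09Rik and Rbl2 (8:91070057-91123844, plus strand) with Aktip. E2f2 (4:136172394-136196057, plus strand), E2f3 (13:29906575-29986063, minus strand), E2f6 (12:16810963-16839742, plus strand), E2f7 (10:110745439-110787384, plus strand), E2f8 (7:48866429-48881596, minus strand) and Rbl1 (2:157145893-157204534, minus strand) stood alone at their loci. Coordinates are those of GENCODE M21 on GRCm38 for whole genes. Genes on the opposite strand overlap E2f3 (Gm11365), E2f5 (1810022K09Rik), E2f7 (1700020G17Rik), E2f8 (Gm2788), Rbl1 (Gm14277) and Rbl2 (Aktip and Gm45464), and without strand information their reads cannot be told apart.

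**Figure D1:**
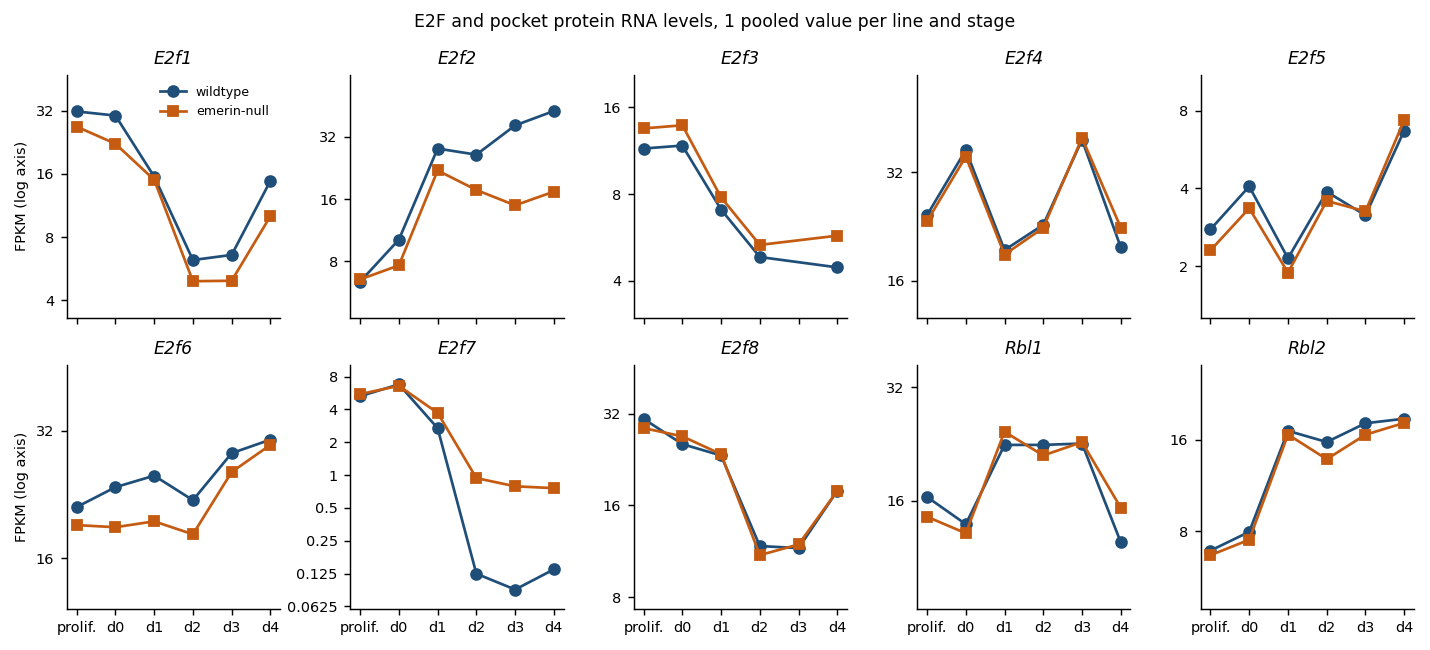
RNA level in FPKM on a log axis for each of the 10 genes against stage, wildtype in blue circles and emerin-null in orange squares, 1 pooled value per point with no error. E2f7 separates between the lines from day 2 and E2f2 from day 3, while the lines of E2f4, E2f8 and Rbl2 nearly coincide; E2f3 has no point at day 3.

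The activator E2f2 and the atypical repressor E2f7 were the members that set the lines apart by more than 1.5-fold, in opposite directions and late in differentiation. E2f7 was higher in emerin-null progenitors at days 2, 3 and 4, and E2f2 was lower at days 3 and 4. No member passed 1.5-fold by its largest entry in proliferating cells, at day 0 or at day 1. At these stages 10.4%, 11.2% and 10.7% of the 9623 genes did. At day 2 it was 1 of 10 members against 11.8% of genes, at day 3 it was 2 of 9 against 13.7%, and at day 4 it was 2 of 10 against 18.2%, shares near those of all genes. With 1 pooled value per line a single stage carries no test.

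E2f7 was nearly lost from wildtype progenitors and kept at a low level in emerin-null progenitors. Its level in wildtype cells was 5.29 FPKM while proliferating and 6.78, 2.69, 0.125, 0.0894 and 0.137 FPKM at days 0 to 4. In emerin-null cells it was 5.53 FPKM while proliferating and 6.58, 3.72, 0.939, 0.790 and 0.760 FPKM at days 0 to 4. Both lines thus held like levels in growth medium and were more than 1.5-fold apart from day 2 on, and every wildtype value at days 2 to 4 lay below every emerin-null value. On the scale of FPKM plus 0.1 the emerin-null level was 4.62-fold higher at day 2, 4.70-fold at day 3 and 3.63-fold at day 4, ratios larger in size than those of 98.6%, 98.1% and 97.4% of genes at these stages. All of these late values are below 1 FPKM, and with 1 FPKM added in place of 0.1 the log2 ratios at days 2, 3 and 4 were 0.79, 0.72 and 0.63.

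At these stages the assembly broke the E2f7 locus into separate fragments, which gave several readings of the same gene. At day 2 all 3 tested entries were higher in emerin-null cells, at 0.0955 to 0.142 FPKM in wildtype against 0.782 to 0.939 FPKM. At day 3 the 3 entries read 0 to 0.0894 FPKM in wildtype and 0.678 to 0.790 FPKM in emerin-null cells. At day 4 the 5 entries read 0 to 0.137 FPKM in wildtype and 0.395 to 0.868 FPKM in emerin-null cells. The fragments span the locus from its 5′ to its 3′ part, and no wildtype reading reached an emerin-null one. In wildtype cells 1 fragment at day 3 and 1 at day 4 were listed at 0. The entries share cells and libraries and are not replicates.

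E2f2 was higher in differentiation than in growth medium in both lines, but less so in the emerin-null line. Its level in wildtype cells was 6.39 FPKM while proliferating and 10.2, 28.0, 26.2, 36.3 and 42.6 FPKM at days 0 to 4. In emerin-null cells it was 6.55 FPKM while proliferating and 7.65, 22.0, 17.7, 14.9 and 17.4 FPKM at days 0 to 4. The proliferating values were nearly equal, the wildtype line was the higher at each of days 0 to 4, and the highest wildtype value came at day 4 whereas the highest emerin-null value came at day 1. The wildtype level was 2.42-fold higher at day 3 and 2.44-fold at day 4, ratios larger in size than those of 95.7% and 94.2% of genes. E2f2 also had a smaller assembled entry in growth medium, at 4.39 and 2.50 FPKM in proliferating wildtype and emerin-null cells and at 2.25 and 0.685 FPKM at day 0, and this entry was lower in emerin-null cells at both stages.

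**Figure D2:**
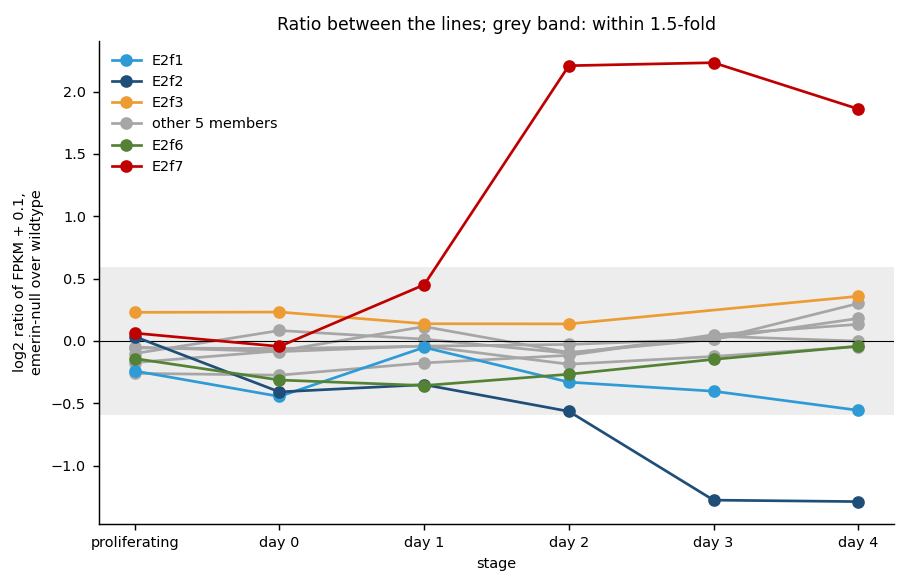
Log2 ratio of FPKM plus 0.1, emerin-null over wildtype, for the 10 genes (points joined by lines) against stage; the grey band marks ratios within 1.5-fold. E2f7 lies above the band at 2.21, 2.23 and 1.86 at days 2 to 4 and E2f2 below it at -1.28 and -1.29 at days 3 and 4, while E2f1 lies below 0 and E2f3 above 0 at each stage with a value.

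Taking the 6 stages as repeats of the comparison of both lines, E2f1 and E2f6 were lower in emerin-null progenitors. The mean of the 6 within-stage log2 ratios was tested with limma and adjusted by Benjamini-Hochberg over all 9623 genes. By this test 2 of the 9 members were called, against 19.2% of all genes (1844, of which 882 were higher and 962 lower), so the share of members is close to that of genes at large. The stages are serial cultures of the same pair of lines, so the p-values measure the spread between stages and not between independent lines.

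E2f1, an activator, had a mean log2 ratio, emerin-null over wildtype, of -0.34 (SE 0.069, limma adjusted p = 0.0196) and was lower in emerin-null cells at 6 of 6 stages. In wildtype cells it was at 31.8 FPKM while proliferating and at 30.4, 15.6, 6.22, 6.58 and 14.8 FPKM at days 0 to 4. In emerin-null cells it was at 26.9 FPKM while proliferating and at 22.3, 15, 4.93, 4.95 and 10.1 FPKM at days 0 to 4. The emerin-null value was thus the lower of the pair at each stage, by no more than 1.47-fold, the size reached at day 4. The call was lost without day 0, day 2 or day 3 (adjusted p = 0.0508, 0.0615 and 0.0659). The entry covers Necab3 as well, and from day 1 on 1700003F12Rik and 1700007I08Rik, so the level at this locus is not that of E2f1 alone.

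E2f6, the repressor that acts with Polycomb proteins, had a mean log2 ratio of -0.21 (SE 0.053, limma adjusted p = 0.0362). By its largest entry it was also lower in emerin-null cells at 6 of 6 stages. Its wildtype level was 21.1 FPKM while proliferating and 23.6, 25.1, 22.0, 28.4 and 30.5 FPKM at days 0 to 4, against 19.2 FPKM and 18.9, 19.6, 18.2, 25.6 and 29.7 FPKM in emerin-null cells. The difference was largest at day 1, at 1.28-fold, and smallest at day 4, at 1.03-fold. The call was lost when any stage except day 4 was left out, with an adjusted p of 0.0638 to 0.104.

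E2f3, the remaining activator, was higher in emerin-null progenitors at all 5 stages with a tested entry. Its levels in wildtype and emerin-null cells were 11.5 and 13.5 FPKM while proliferating, 11.8 and 13.9 FPKM at day 0, 7.08 and 7.80 FPKM at day 1, 4.84 and 5.34 FPKM at day 2 and 4.46 and 5.74 FPKM at day 4. In a fit over genes with an entry at 5 or 6 stages, chosen after E2f3 was seen to lack day 3, its mean log2 ratio was 0.22 (SE 0.050, limma adjusted p = 0.0369). That fit called 1949 of 10726 genes, and E2f3 was not tested with a further stage left out. E2f3 at day 3 was not analysed here.

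The members with the largest late ratios did not pass this test, and their ratios varied most between stages (SD over stages 0.53 for E2f2 and 1.09 for E2f7). E2f2 had a mean log2 ratio of -0.64 (SE 0.19, limma adjusted p = 0.0594), lower at 5 of 6 stages. It passed when all its entries were summed (log2 ratio -0.72, adjusted p = 0.0251) and when the proliferating stage was left out (-0.78, adjusted p = 0.0444). E2f7 had a mean log2 ratio of 1.13 (SE 0.38, limma adjusted p = 0.0847), higher at 5 of 6 stages.

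Whether the ratio between the lines differed between growth and differentiation medium was tested as the mean at days 1 to 4 minus the mean at the proliferating stage and day 0. No member passed, and 0.281% of genes did (27 of 9623, with 1210 at an unadjusted p below 0.05). E2f7 had the largest difference of the family, 1.68 on the log2 scale (SE 0.53, limma unadjusted p = 0.0206, adjusted p = 0.330), from a mean ratio of 0.01 in growth medium to 1.69 in differentiation medium. For E2f2 the difference was -0.68 (SE 0.33, adjusted p = 0.435), from -0.19 to -0.87. E2f7 alone of the members had an unadjusted p below 0.05. It passed when day 1 was left out (difference 2.09, adjusted p = 0.0142), the stage at which its ratio was between the early and the late values.

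E2f4 and E2f5, the repressors that partner pocket proteins, did not pass the test between the lines. E2f4 was at 24.3, 36.9, 19.5, 22.9, 39.4 and 19.8 FPKM in wildtype cells, in order of stage from proliferating to day 4. In emerin-null cells it was at 23.4, 35.4, 18.9, 22.5, 39.8 and 22.5 FPKM, never more than 1.13-fold apart. Both lines showed the same peaks at day 0 and day 3, at a locus joined with Elmo3 throughout and with Exoc3l at days 0, 1 and 4 only. Stages were assembled and normalized separately, so a shift common to a whole stage cannot be told apart from these peaks. E2f5 was at 2.78, 4.07, 2.15, 3.88, 3.15 and 6.70 FPKM in wildtype and at 2.30, 3.35, 1.89, 3.58, 3.26 and 7.36 FPKM in emerin-null cells. Its mean log2 ratio was -0.11 (SE 0.066, limma adjusted p = 0.291), and both lines had their highest value at day 4.

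E2f8, the other atypical repressor, differed from E2f7 in how it ran along the stages. In wildtype cells it was at 30.8, 25.4, 23.3, 11.8, 11.6 and 17.9 FPKM from proliferating to day 4, and in emerin-null cells at 28.7, 26.9, 23.6, 11, 11.9 and 17.9 FPKM. The lines were within 1.07-fold of each other at every stage (mean log2 ratio -0.01, SE 0.041, limma adjusted p = 0.874). Where E2f7 was below 1 FPKM in both lines by day 2, E2f8 stayed above 10 FPKM and was higher again at day 4 than at day 3, as E2f1 was.

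The pocket protein genes moved alike in both lines. Rbl2, which encodes p130, was at 6.92, 7.97, 17.1, 15.7, 18.1 and 18.8 FPKM in wildtype and at 6.68, 7.51, 16.7, 13.8, 16.6 and 18.2 FPKM in emerin-null cells, from proliferating to day 4. Its level was higher at day 1 than at day 0 and stayed high, and the emerin-null value was lower at 6 of 6 stages by at most 1.14-fold (mean log2 ratio -0.09, SE 0.037, limma adjusted p = 0.139). Rbl1, which encodes p107, was at 16.4, 13.9, 22.5, 22.5, 22.7 and 12.4 FPKM in wildtype and at 14.5, 13.1, 24.4, 21.1, 22.9 and 15.3 FPKM in emerin-null cells (mean log2 ratio 0.01, SE 0.068, limma adjusted p = 0.895). 

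These levels are those of the larger of the assembled entries at each locus, and the smaller ones ran otherwise. The smaller Rbl1 entry was at 8.43, 9.49, 7.89, 1.80, 1.71 and 1.88 FPKM in wildtype and at 8.58, 9.75, 8.05, 2.54, 2.70 and 2.67 FPKM in emerin-null cells. It was thus several times lower from day 2 on in both lines, whereas the larger entry was not, and at days 2 to 4 the emerin-null value was the higher, by 1.39-fold, 1.55-fold and 1.40-fold. The smaller Rbl2 entry was at 2.71 to 7.22 FPKM in wildtype and 2.75 to 6.97 FPKM in emerin-null cells, without the step at day 1. Entries were ranked by level at each stage, and which transcripts of these genes they represent is not given in the tables used here.

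**Figure D3:**
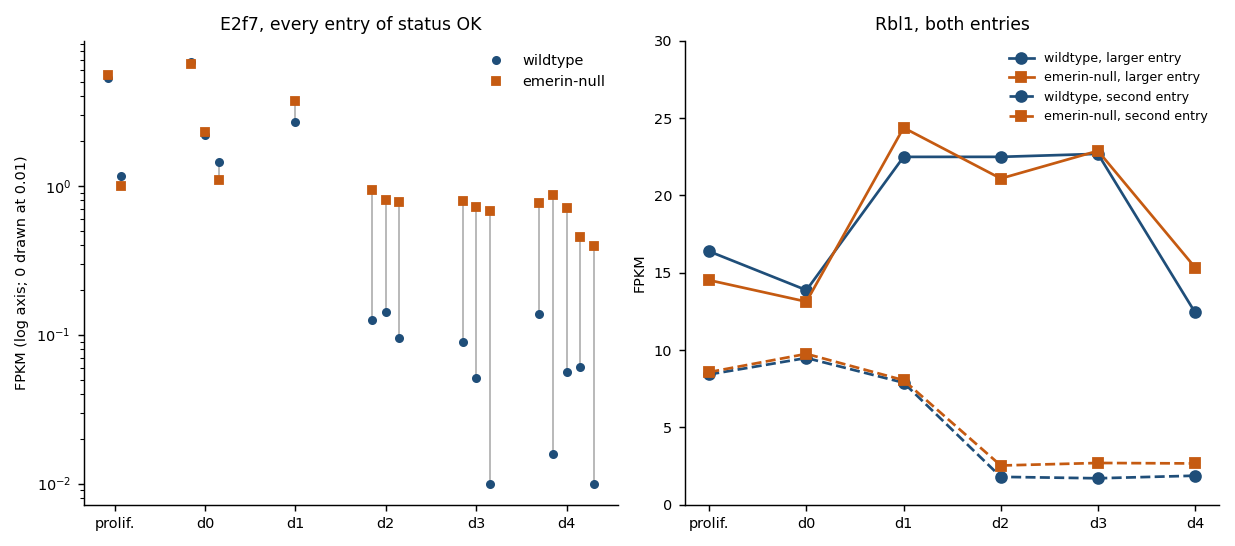
Left, FPKM on a log axis of every tested E2f7 entry at each stage, wildtype in blue circles and emerin-null in orange squares joined by a grey line per entry, with readings of 0 drawn at 0.01. Right, FPKM of the larger (solid) and smaller (dashed) Rbl1 entry by stage in both lines; at days 2 to 4 all E2f7 entries are higher in emerin-null cells, and the smaller Rbl1 entry is at 1.71 to 2.70 FPKM.

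Along differentiation the family divided into members that were lower late, members that were higher late and members that were nearly level, with the same division in both lines. The late change was the mean log2 level at days 2 to 4 minus the mean at the proliferating stage and day 0. The stage tables were assembled and normalized separately, so it is a description with no test, and fewer cells of a type and less RNA per cell cannot be told apart in these bulk samples. Lower by at least 2-fold in both lines were 4 of 10 members, E2f1, E2f3, E2f7 and E2f8, against 25.9% of genes in wildtype and 23.5% in emerin-null cells. Higher by at least 2-fold in both lines were 2 of 10, E2f2 and Rbl2, against 14.2% and 14.9% of genes.

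E2f7 had a late change of -4.82 on the log2 scale in wildtype and of -2.73 in emerin-null cells, the largest in size of the family in each line. Its largest entry spanned the locus in growth medium and was a fragment at days 2 to 4, so this change is not like for like. For E2f1 the late change was -1.86 and -1.95, for E2f3 -1.31 and -1.29 (days 2 and 4 only), and for E2f8 -1.05 and -1.06. The E2f1 entry covered Necab3 at all stages and, at days 2 to 4, also 1700003F12Rik and 1700007I08Rik. Its change is therefore not like for like and not that of E2f1 alone. E2f2 changed by 2.08 in wildtype and 1.22 in emerin-null cells and Rbl2 by 1.23 and 1.17. E2f7 and E2f2 were thus the members whose late change differed most between the lines, in each case smaller in size in emerin-null cells, and among the others the lines differed most for E2f5, by 0.29. E2f4, E2f5, E2f6 and Rbl1 stayed between -0.20 and 0.65 on the log2 scale.

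The median of all genes was itself shifted, by -0.26 in wildtype and -0.21 in emerin-null cells, and median-ratio scaling of the 12 columns set it to 0.01 in both. Of the genes past 2-fold, 35.5% in wildtype and 38.8% in emerin-null cells were higher late as deposited, and 49.8% and 51.0% after scaling. After scaling E2f8 was no longer past 2-fold (-0.78 in wildtype and -0.84 in emerin-null cells), E2f1 stood at -1.59 and -1.73, E2f3 at -1.04 and -1.08, E2f7 at -4.61 and -2.52, E2f2 at 2.35 and 1.44 and Rbl2 at 1.5 and 1.39. The change of E2f4 turned from -0.20 to 0.08 in the wildtype line, and in the emerin-null line from -0.08 to 0.14, so no direction is given for it. With all entries of a gene summed, the changes of Rbl2 were 0.87 and 0.81 and that of E2f2 in emerin-null cells was 0.93, below 2-fold, while that of E2f2 in wildtype cells was 1.56. For E2f7 the summed level changed by -4.59 in the wildtype and by -1.60 in the emerin-null line. Its entries in growth medium spanned the locus, whereas the late ones were separate fragments. These sums therefore add several readings of the same gene late only, and they are not compared with other members. With 1 FPKM added in place of 0.1, the change of E2f7 was -2.65 in the wildtype and -1.94 in the emerin-null line. The summed level of Rbl1 changed by -0.24 and -0.05, the opposite sign of its larger entry (0.29 and 0.49). The smaller entries, looked at after seeing the data, changed by -2.25 and -1.76 for Rbl1, by 0.06 and 0.04 for Rbl2 and, for E2f7, by -3.39 and -0.85. The smaller E2f7 entry was likewise a fragment late but not early, so its change is not like for like.

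**Figure D4:**
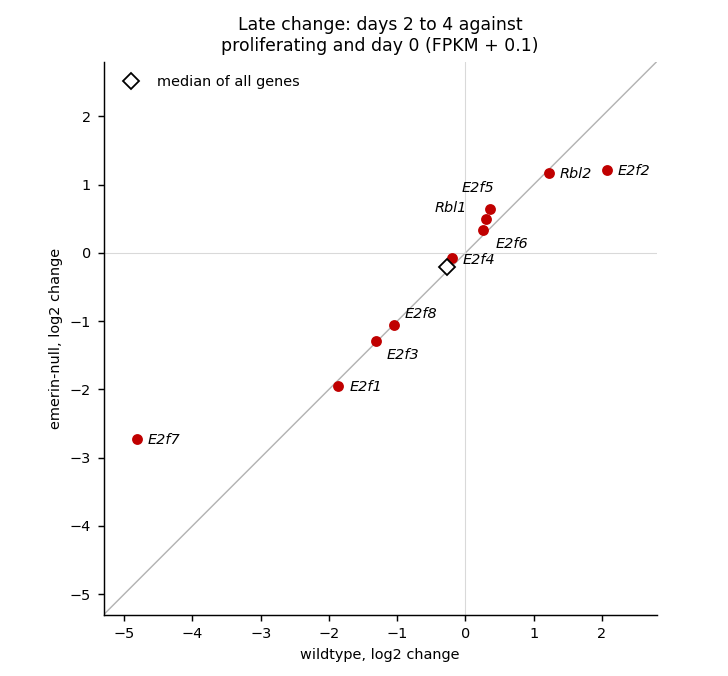
Log2 late change in emerin-null (vertical axis) against wildtype progenitors (horizontal axis), a point per gene, with the line of equal change and an open diamond for the median of all genes. E2f7 lies above the line at -4.82 and -2.73 and E2f2 below it at 2.08 and 1.22, and the other 8 genes lie close to it.

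Genes whose level over the 12 samples ran most like that of a member were sought among 5985 or 5986 genes alone at their locus, by Pearson correlation of log2 levels. The 12 points share lines and stages, so r is a description and carries no p. E2f7 ran most like Melk (r = 0.995), Aurkb (r = 0.995) and Kif23 (r = 0.994), genes of mitosis and cytokinesis, and 590 of 5985 genes had an r above 0.9 with it. Melk was at 21.9 FPKM in proliferating and 0.255 FPKM in day 4 wildtype cells, against 24.1 and 1.81 FPKM in emerin-null cells. Lactb and Rab3gap1 were among the genes that ran most like E2f2 (r = 0.958 and 0.957), with 55 genes above 0.9, so its pattern was shared by fewer genes than that of E2f7. Rbl2 ran most like Bhlhe40, Eda2r and Ndufaf4 (r = 0.989, 0.986 and 0.985), with 242 of 5986 genes above 0.9.

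Within the family E2f1 ran most like E2f8 (r = 0.966), followed by Klf10 and Mbd1 (r = 0.959 and 0.958). E2f2 and Rbl2 ran alike (r = 0.914) and both ran against E2f7 (r = -0.80 and -0.76). E2f8 ran most like Snrpb2, Mocs2 and Ncoa7 (r = 0.974, 0.961 and 0.958), and its r with E2f7 was 0.831. Rbl1 ran most like Gatm, Mapk14 and Prss36 (r = 0.950, 0.929 and 0.922), E2f4 like 1700007B14Rik, Dnajb6 and Esd (r = 0.949, 0.941 and 0.90), E2f5 like Chmp2b, Guk1 and Slain2 (r = 0.950, 0.943 and 0.940) and E2f6 like St7, Ndrg2 and Tollip (r = 0.934, 0.928 and 0.928). Between 2 and 13 genes passed 0.9 for each of these last 4 members.

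The replication genes that E2F factors are known to control had mostly higher values in emerin-null progenitors late in differentiation, though 1 of 13 passed the test over all stages. Of a list of 22 S phase targets, 13 could be measured alone at their locus. Late in differentiation all 13 were lower by at least 2-fold in wildtype cells, against 25.9% of all genes. In emerin-null cells 12 of 13 were, Tyms being the exception, against 23.5% of all genes. Their median late change was -3.63 and -2.78, against -0.26 and -0.21 for all genes. The median ratio between the lines was 0.04 while proliferating and -0.03, 0.28, 0.91, 1.09 and 1.29 at days 0 to 4. Past 1.5-fold higher in emerin-null cells were 0 of 13 while proliferating. At days 0 to 4 it was 1, 1, 7, 10 and 11 of 13. Of all genes 10.4%, 11.2%, 10.7%, 11.8%, 13.7% and 18.2% were past 1.5-fold in either direction, from proliferating to day 4. Over the 6 stages only Gins1, a subunit of the replicative helicase, was called (mean log2 ratio 0.48, SE 0.12, limma adjusted p = 0.0346), and none was called lower. Of all genes 19.2% were called in either direction.

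Mki67, a mark of cycling cells, had among the largest late ratios of the 13 genes. It was not called (mean log2 ratio 1.67, SE 0.61, limma adjusted p = 0.0997). In wildtype cells it was at 41.3, 60.4, 12.3, 0.299, 0.112 and 0.0920 FPKM from proliferating to day 4, and in emerin-null cells at 40.6, 60.3, 15.8, 3.66, 2.23 and 1.44 FPKM. The lines were nearly equal in growth medium and did not overlap at days 2 to 4, as for E2f7. Cdc6, which loads the helicase, had ratios of 1.64, 2.94 and 3.13 on the log2 scale at days 2 to 4 and a mean log2 ratio of 1.36 (SE 0.50, limma adjusted p = 0.105). Its level on these days was 0.245, 0.190 and 0.0302 FPKM in wildtype and 0.977, 2.13 and 1.04 FPKM in emerin-null cells. The wildtype values are near 0, so the size of these ratios depends on the 0.1 FPKM added. Not all genes of the list were higher in emerin-null cells at each of days 2 to 4. At days 2 to 4 the log2 ratios were 0.01, -0.22 and 0.12 for Rrm1 and -0.49, 0.24 and 0.60 for Rrm2. The part that a share of cells still cycling has in the E2f7 difference was not tested.

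**Figure D5:**
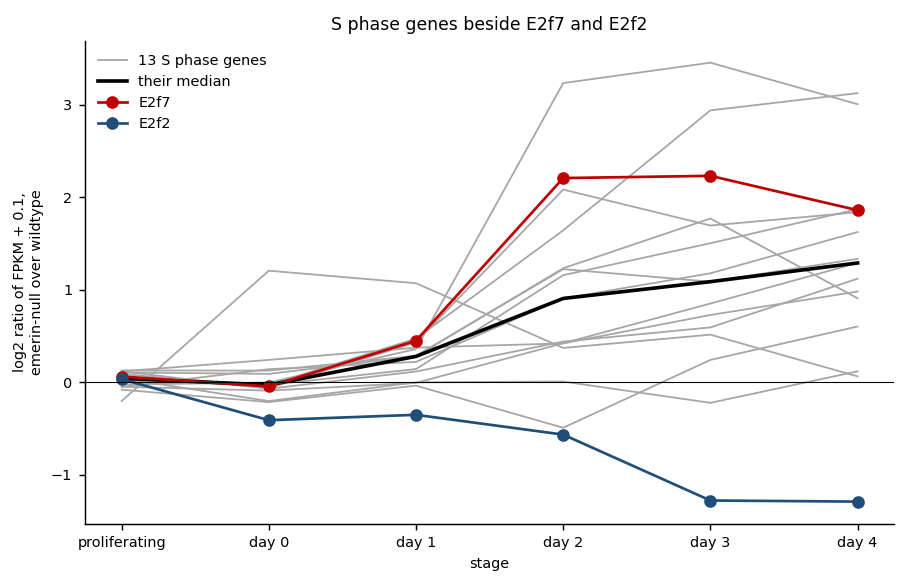
Log2 ratio of FPKM plus 0.1, emerin-null over wildtype, against stage for 13 S phase genes (grey lines), their median (black), E2f7 (red) and E2f2 (blue). From proliferating to day 4 the median goes from 0.04 to 1.29 and E2f7 from 0.06 to 1.86, whereas E2f2 goes from 0.04 to -1.29.

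Of the MuvB and B-Myb genes 5 of 8 were measured, and Mybl2, which encodes B-Myb, was the only one called, higher in emerin-null cells (mean log2 ratio 1.11, SE 0.28, limma adjusted p = 0.0359), with ratios of 0.33 while proliferating and 0.23, 0.77, 2.10, 1.74 and 1.48 at days 0 to 4. Its level at day 2 was 0.128 FPKM in wildtype and 0.880 FPKM in emerin-null cells. Of the DP partners Tfdp1 and Tfdp2, neither was called, and Rb1, which encodes the retinoblastoma protein, shared its locus and was not counted. Of the repression partners of E2F6 and E2F4, 6 of 10 were measured and none was called; Suv39h1, a histone methyltransferase, had a late change on the log2 scale of -2.39 in the wildtype and -2.21 in the emerin-null line.

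Of the G1 cyclins and kinases, 3 of 8 were measured, and none was called between the lines. All 3 were lower late by at least 2-fold in both lines, against 25.9% of genes in wildtype and 23.5% in emerin-null cells. Ccnd1, which encodes cyclin D1, was at 6.35 and 3.47 FPKM in wildtype against 11.8 and 13.4 FPKM in emerin-null cells at days 3 and 4. Its log2 ratios, emerin-null over wildtype, were -0.45 while proliferating and 0.07, -0.31 and -0.08 at days 0 to 2. Ccne1, which encodes cyclin E1 and is itself an E2F target, was at 4.70 and 3.99 FPKM against 10.3 and 12.2 FPKM at days 3 and 4. Cdk6 had log2 ratios of -0.56 at day 1 and 0.0053, 0.0017 and 0.10 at days 2 to 4. Of the kinase inhibitors, 6 of 7 were measured and Cdkn1c alone was called, higher in emerin-null cells at 6 of 6 stages (mean log2 ratio 2.42, SE 0.13, limma adjusted p = 0.000156). Cdkn2b, which encodes p15, was higher late by 2.88 in wildtype and 3.31 in emerin-null cells on the log2 scale.

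Markers of cell states also differed between the lines. Pax7 and Myf5, which mark muscle progenitors, were called higher in emerin-null cells (mean log2 ratios 2.34 and 1.19), and Myod1 was not (0.06). Pax7 had log2 ratios of 1.24 while proliferating and 3.43 at day 4, and Myf5 of 1.29 and 1.73, so both were already higher in growth medium. Of the smooth muscle and pericyte markers measured, Cspg4 was called higher, with log2 ratios of 2.16 to 2.90 at the 6 stages and no late onset, and Acta2 was not called (mean log2 ratio -0.24, limma adjusted p = 0.0947). The fibroblast marker Col1a1, not called over the stages, had log2 ratios of -0.21 while proliferating and -2.17, -0.51, 1.15, 2.19 and 2.74 at days 0 to 4. The part of these in the E2f2, E2f7 and replication gene differences was not tested.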

How the data were processed

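The samples were grouped by genotype and stage from their GEO labels. The authors checked reads with FastQC, mapped them to mm10 with TopHat and compared both lines at each stage with Cuffdiff; for their versions, the counting options and the strandedness of the libraries nothing was given in the sources used here. The deposited tables give, per assembled gene and genotype, a pooled value over 3 plates, taken to be FPKM because the columns are those of Cuffdiff output. They also hold the authors' fold, test statistic, p, q and call, which were not used, and a second sheet of called entries, not used either. The labels and the methods differ on the growth temperature, which entered no computation. In each table an assembled gene carries all symbols of its locus, and names turned into dates by a spreadsheet were left out (35 to 48 entries per table).

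Per gene and stage the entry of status OK with the largest summed FPKM was kept. Genes needed such an entry at all 6 stages and a mean of at least 1 FPKM. The log2 ratio, emerin-null over wildtype, was taken within each stage on FPKM plus 0.1. Its mean over stages was tested with limma 3.58.1 in R 4.3.3. So was the difference between days 1 to 4 and the proliferating stage with day 0. P-values were adjusted by Benjamini-Hochberg over all genes, with a call at an adjusted p below 0.05. The fit was run on simulated data with independent stages, which cannot show how it behaves with serial ones. Single stages (1.5-fold) and late change (2-fold) carry no test. No counts are given, so the precision of a value is unknown. Alternatives covered the entry, the pseudocount (0.01 and 1), the filter, centring, scaling, the variance prior, joined loci and each stage left out. All members are named, with Emd, list genes past a fold (up to 4 per list) and the 3 genes most like each member, of which 1 is not reported here. The members and lists were chosen with earlier results of these data known. Promoter windows came from RefSeq (GRCm38.p6).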

Additional observations from a re-analysis of the deposited data

How the results depend on the processing

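No result past its threshold changed direction under any alternative that was run. The late changes of E2f4 and Rbl1, below 2-fold, changed sign as given above, and the smaller Rbl1 entry was past 2-fold lower in both lines. Other values short of a threshold also changed sign. Among them, by the smaller entry, the log2 ratio of E2f6 at day 0 went from -0.31 to 0.65. That of E2f2 while proliferating went from 0.04 to -0.79. Restricted to genes alone at their locus, the test over stages called 1 member, since E2f1 is joined with Necab3. With 1 stage left out at a time that test called 0 to 2 members and 934 to 1519 genes (452 to 767 higher and 482 to 863 lower), the lowest without day 2, and fewer stages were then available. The test between growth and differentiation medium called 13 genes with all entries summed (8 higher and 5 lower), and with 1 stage left out 4 to 123 genes (1 to 95 higher and 3 to 28 lower) and 0 to 1 members, the most without day 1; the cause was not tested.

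At a fold of 2 in place of 1.5, 452, 503, 421, 539, 607 and 822 genes were past the fold from the proliferating stage to day 4. For the late change, summing all entries left 1 member higher in wildtype and 0 in emerin-null cells. Among genes alone at their locus 1600 were lower and 789 higher in wildtype, 1420 lower and 820 higher in emerin-null cells, and 1 member was higher in each line, Rbl2 being joined with Aktip. At a fold of 1.5, 3698 genes were lower and 2184 higher in wildtype, and 3495 were lower and 2237 higher in emerin-null cells. With 1 stage left out 3 to 4 members were lower and 2 higher in each line.

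E2f1 kept its call in 10 of 13 and E2f6 in 9 of 14 alternatives, with adjusted p from 0.0149 to 0.0659 and from 0.0229 to 0.104. E2f2 passed in 2 of 14 and E2f7 in 0 of 14, with adjusted p from 0.0251 to 0.139 and from 0.0578 to 0.200. Fits over genes with 5 or 6 stages and values of the smaller entry were chosen after seeing the data. Both lines were paired by stage in each ratio. No pairing by plate was possible because the plates were pooled into a single value for each sample. The tables give no counts, plate values or depth, so low values such as those of E2f7 at days 2 to 4 carry no counting interval here.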
